A study of Mus musculus with 6 samples.

Results

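Norrin signalling and the blood-retina barrier were read from 10 genes in nuclei of the mouse retina, taken from the files by symbol. All 10 were found once each among the 32285 genes of the files. They are Ndp, which encodes the ligand Norrin, its receptor Fzd4, the co-receptor Lrp5 and the co-activator Tspan12, the barrier genes Cldn5, Plvap, Mfsd2a, Sox17 and Slc2a1, and Vegfa.

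In the retina, Müller glia secrete Norrin, which binds frizzled-4 on endothelial cells together with LRP5 and tetraspanin-12 and switches on beta-catenin. This signal drives growth of the deeper vessels and keeps the endothelium tight: it favours claudin-5 of the tight junctions and represses PLVAP, the diaphragm protein of leaky vessels. VEGF-A acts beside it as a growth and permeability factor for the same endothelium. WIF1 is a secreted inhibitor that binds Wnt ligands.

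Nuclei of C57BL/6J retinas were profiled by 10x multiome, which reads RNA and open chromatin (ATAC) of the same nucleus. There was 1 library of retinas 2 weeks after AAV2/2 treatment (WIF1-2w, called WIF1 2 weeks here), 1 after 4 weeks (WIF1-4w, WIF1 4 weeks) and 1 of naïve wild-type retinas (control). Each group came from 2 eyes, and the labels do not say whether or how they were pooled, nor the age of the mice. AAV2/2 vectors carrying CMV-Wif1-HA-IRES-GFP or CMV-Wif1-HA are described, both driven by the broadly active CMV promoter, but not which of them a library received. A CMV-IRES-GFP vector is named as a control of the study, while the control retinas here are labelled naïve, so effects of injection, of the vector and of Wif1 cannot be told apart. The abbreviation AVI beside the times is not spelled out.

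The libraries held 14568384, 19997276 and 21805441 RNA UMIs (unique transcript counts) at WIF1 2 weeks, at WIF1 4 weeks and in the control, and 90490537, 71304238 and 37525307 ATAC counts. After filtering, 8927, 8922 and 7185 nuclei stayed, with medians of 802, 1200 and 1640 UMIs. Between 142 and 207 cell barcodes were shared by each pair of libraries. Wif1 RNA summed to 12, 37 and 1 UMIs over the kept nuclei of WIF1 2 weeks, WIF1 4 weeks and the control. Whether the vector RNA is counted under this gene is not given in the sources used here, so these counts are a weak check of the labels.

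With 1 library per group no test between groups was possible. Levels are CPM, the number of UMIs of a gene in every 1000000 UMIs of its cell class and library, with exact Poisson intervals. Ratios have exact conditional binomial intervals. Both are 95% intervals that cover counting error only and have no replicate check. A gene counted as measured in a comparison with at least 30 UMIs in the higher library, and as past the fold at a ratio of 2 or more in either direction.

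Müller-like nuclei numbered 274, 229 and 102 at WIF1 2 weeks, at WIF1 4 weeks and in the control, and endothelial-like nuclei 55, 78 and 68. All 18 listed Müller markers and all 19 listed endothelial markers were detected in their own class in every library. Müller markers summed to 31698, 38892 and 33602 CPM in Müller-like nuclei of WIF1 2 weeks, WIF1 4 weeks and the control. Endothelial markers summed to 24992, 17878 and 20448 CPM in endothelial-like nuclei. Fewer nuclei of a class and less RNA per nucleus act alike on any sum over the whole retina, so levels were compared within a class. Rod markers summed to 1461, 2845 and 5488 CPM in Müller-like nuclei and to 5902, 10187 and 8468 CPM in endothelial-like nuclei of WIF1 2 weeks, WIF1 4 weeks and the control. Pericyte markers in endothelial-like nuclei summed to 821, 1112 and 2154 CPM, with 4, 6 and 14 of 15 detected. Rgs5, Pdgfrb and Notch3 were among those at 0 at WIF1 2 weeks, and Kcnj8, Abcc9 and Notch3 among those at 0 at WIF1 4 weeks. The part of this RNA in the results was not tested except where a value without such nuclei is given.

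The ligand Ndp was a Müller and horizontal cell gene at low depth. Müller-like nuclei held 18 UMIs at WIF1 2 weeks, 20 at WIF1 4 weeks and 11 in the control, which is 25.2 CPM (14.9 to 39.8), 23.9 CPM (14.6 to 36.9) and 27.8 CPM (13.9 to 49.7). The 3 libraries lay within each other's intervals. Ratios were 0.91 for WIF1 2 weeks over control (0.41 to 2.12) and 0.86 for WIF1 4 weeks over control (0.39 to 1.99), so a change by 2-fold could not be told from none at this depth. Rod-like nuclei, a measure of free RNA, held Ndp at 0.441, 0.628 and 0.665 CPM.

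Horizontal-like nuclei carried Ndp at 68.7 CPM at WIF1 2 weeks (10 UMIs in 20 nuclei) and 78.2 CPM in the control (23 UMIs in 25 nuclei), while the 5 nuclei of this cluster at WIF1 4 weeks were all called doublets and removed. Over all libraries the order was horizontal-like at 75.1 CPM (51.7 to 105), Müller-like at 25.2 (18.6 to 33.3) and amacrine-like at 9.91 (6.73 to 14.1), with no overlap of these intervals. Of all Ndp UMIs in kept nuclei, Müller-like nuclei held 46.2% at WIF1 2 weeks, 51.3% at WIF1 4 weeks and 17.5% in the control. In the same order of libraries, amacrine-like nuclei held 15.4%, 15.4% and 30.2%, and horizontal-like nuclei 25.6%, 0% and 36.5%. Kept nuclei numbered 274, 229 and 102 in the Müller-like class and 222, 120 and 414 in the amacrine-like class. The horizontal-like class had 20, 0 and 25. The part of class numbers in these shares was not tested. No ATAC peak lay within 1000 bp of the Ndp start (chromosome X, 16911774, mm10) in any library.

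Over 18 combinations of class and library (6 classes with 50 or more nuclei in each library), the profiles near to that of Ndp included those of Ephb1 (r = 0.97), Pax6os1 (0.97), Gm5087 (0.96) and Sema5a (0.96), as Pearson correlations of log2(CPM + 1). The nearest to Cldn5 were Pdgfb, Anxa3, Vwf, Foxq1 and Sox17, each at r = 0.99. Points of a library share its depth, and the correlations are a description.

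**Figure D1:**
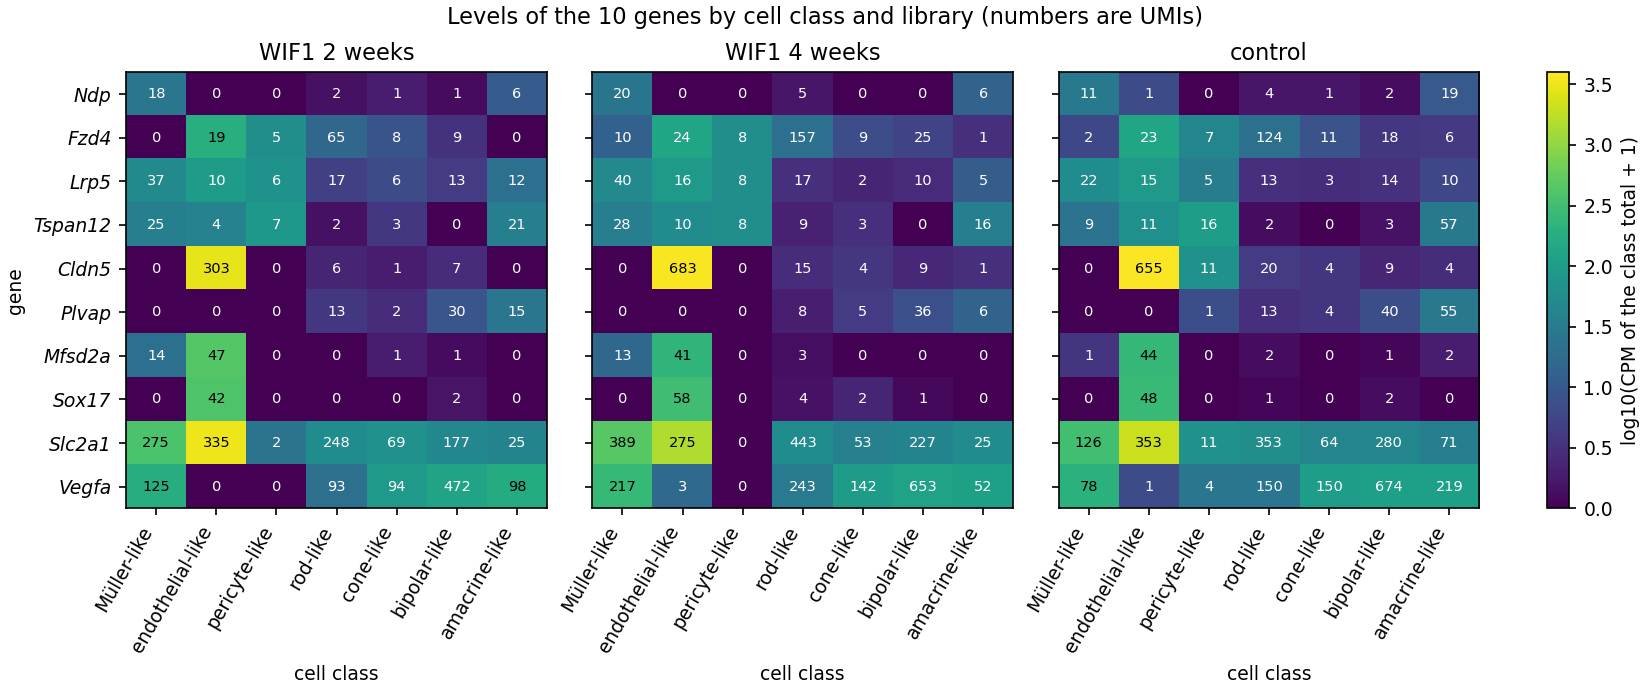
Level of each gene (rows) in 7 cell classes (columns) of WIF1 2 weeks, WIF1 4 weeks and the control, as log10 of CPM of the class total plus 1, with UMIs printed in each cell. Cldn5, Mfsd2a and Sox17 are bright in the endothelial-like column, Slc2a1 in the endothelial-like and Müller-like columns, and Plvap has 0 UMIs in both in all 3 libraries.

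The receptor Fzd4 had its highest level in endothelial-like nuclei, at 181 CPM (19 UMIs) at WIF1 2 weeks, 130 CPM (24 UMIs) at WIF1 4 weeks and 132 CPM (23 UMIs) in the control. Over all libraries this was 142 CPM (110 to 181), above pericyte-like nuclei at 52.2 CPM (31.9 to 80.6) and rod-like nuclei at 18.7 CPM (16.8 to 20.8). Rod-like nuclei, the most numerous class, held 58.6%, 67.1% and 63.6% of all Fzd4 UMIs at WIF1 2 weeks, at WIF1 4 weeks and in the control. Bipolar-like nuclei held 2.36, 4.51 and 2.86 CPM, below rod-like nuclei in each library.

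Lrp5, the co-receptor, was spread over several classes. Over all libraries it stood at 88.4 CPM in endothelial-like (63.5 to 120), 68.3 CPM in microglia-like or macrophage-like (36.4 to 117), 50.8 CPM in Müller-like (41.3 to 61.9) and 49.6 CPM in pericyte-like nuclei (29.9 to 77.5), and of these 4 classes only the endothelial-like and Müller-like intervals did not overlap. Endothelial-like nuclei held 95.5, 86.8 and 85.9 CPM at WIF1 2 weeks, at WIF1 4 weeks and in the control (10, 16 and 15 UMIs). Müller-like nuclei held 51.8, 47.8 and 55.5 CPM (37, 40 and 22 UMIs). The Müller-like ratios were 0.93 for WIF1 2 weeks over control (0.54 to 1.66) and 0.86 for WIF1 4 weeks over control (0.50 to 1.52).

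Tspan12, which helps Norrin cluster the receptor, did not have endothelial-like nuclei at its top: pericyte-like nuclei stood at 80.9 CPM over all libraries (55.0 to 115), horizontal-like at 54.6 (35.0 to 81.2) and endothelial-like at 53.9 (34.9 to 79.6). These 3 classes overlapped in their intervals. In endothelial-like nuclei 4, 10 and 11 UMIs gave 38.2 CPM (10.4 to 97.8) at WIF1 2 weeks, 54.2 CPM (26.0 to 99.8) at WIF1 4 weeks and 63.0 CPM (31.5 to 113) in the control. None of the 3 receptor genes reached 30 UMIs in an endothelial-like library.

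Cldn5, the main claudin of vessel tight junctions, held 303 UMIs at WIF1 2 weeks, 683 at WIF1 4 weeks and 655 in the control in endothelial-like nuclei. The levels were 2894 CPM (2577 to 3239), 3705 CPM (3432 to 3993) and 3753 CPM (3471 to 4051). WIF1 2 weeks was the low library, and its interval did not overlap that of the control or of WIF1 4 weeks. The ratio was 0.77 for WIF1 2 weeks over control (0.67 to 0.88), 0.99 for WIF1 4 weeks over control (0.89 to 1.10) and 1.28 for WIF1 4 weeks over WIF1 2 weeks (1.117 to 1.471), all under 2-fold. One control nucleus held 64 of the 655 UMIs. Endothelial-like nuclei held 95.6%, 95.9% and 93.2% of all Cldn5 UMIs, and Müller-like nuclei 0.

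Slc2a1, the glucose transporter GLUT1 of barrier endothelium and glia, went the other way at 2 weeks. Endothelial-like nuclei held 335, 275 and 353 UMIs, or 3199 CPM (2866 to 3561) at WIF1 2 weeks, 1492 CPM (1321 to 1679) at WIF1 4 weeks and 2022 CPM (1817 to 2245) in the control. The 3 intervals did not overlap: WIF1 2 weeks was highest and WIF1 4 weeks lowest. The ratio was 1.58 for WIF1 2 weeks over control (1.36 to 1.84), 0.74 for WIF1 4 weeks over control (0.63 to 0.87) and 0.466 for WIF1 4 weeks over WIF1 2 weeks (0.396 to 0.549).

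Mfsd2a, the lysophosphatidylcholine transporter that holds down transcytosis in barrier endothelium, was likewise highest at WIF1 2 weeks, at fewer counts. It had 47, 41 and 44 UMIs, or 449 CPM (330 to 597) at WIF1 2 weeks, 222 CPM (160 to 302) at WIF1 4 weeks and 252 CPM (183 to 338) in the control. The ratio was 1.78 for WIF1 2 weeks over control (1.15 to 2.75), 0.88 for WIF1 4 weeks over control (0.56 to 1.38) and 0.495 for WIF1 4 weeks over WIF1 2 weeks (0.318 to 0.770). The direction between WIF1 4 weeks and the control was not stable: the ratio was 1.10 with called doublets kept and 1.01 without nuclei of over 25% rod chromatin.

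Sox17, an endothelial transcription factor known as a target of beta-catenin signalling, had 42, 58 and 48 UMIs, or 401 CPM (289 to 542), 315 CPM (239 to 407) and 275 CPM (203 to 365) at WIF1 2 weeks, at WIF1 4 weeks and in the control. All 3 intervals overlapped. Its ratio to control was 1.46 at WIF1 2 weeks (0.94 to 2.25) and 1.14 at WIF1 4 weeks (0.77 to 1.71).

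Plvap, the leakage marker, had 0 UMIs in endothelial-like nuclei of all 3 libraries. A count of 0 allows up to 28.6 CPM at WIF1 2 weeks, 16.3 CPM at WIF1 4 weeks and 17.2 CPM in the control, at 3 counts per library. Its RNA lay in neurons: amacrine-like nuclei held 25 CPM (14.0 to 41.2), 12.9 CPM (4.72 to 28) and 26.7 CPM (20.1 to 34.7), and bipolar-like nuclei 7.88, 6.49 and 6.35 CPM, against 2.87, 1.01 and 2.16 CPM in rod-like nuclei. Amacrine-like and bipolar-like nuclei together held most of its 63, 56 and 117 UMIs.

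Counted by the rule, 4 of the 10 genes were measured in endothelial-like nuclei: Cldn5, Mfsd2a, Sox17 and Slc2a1. For WIF1 2 weeks over control none of these 4 was past 2-fold, while 11.3% of all 1203 measured genes were past it in either direction. For WIF1 4 weeks over control none of 4 was past 2-fold, against 6.28% of 1480 genes. For WIF1 4 weeks over WIF1 2 weeks 2 of 4, Slc2a1 and Mfsd2a, were lower by 2-fold, against 2.84% of 1337 genes lower and 14.7% in either direction. Their median log2 ratio was 0.60, -0.10 and -0.68 for these comparisons, against -0.11, 0.05 and 0.14 over all genes measured.

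Both calls sat near the fold. Over the 9 other settings Slc2a1 stayed between 0.42 and 0.52 and Mfsd2a between 0.41 and 0.58, below 1 in each. Slc2a1 was past 2-fold in 7 of these 9 and Mfsd2a in 3 of 9. Without nuclei of over 25% rod chromatin, or with called doublets kept, neither gene was past it. Endothelial-like nuclei had medians of 1705, 1940 and 2189 UMIs at WIF1 2 weeks, at WIF1 4 weeks and in the control. Their own markers summed to 24992, 17878 and 20448 CPM, the order of Slc2a1 and Mfsd2a but not of Cldn5 and Sox17. The part of this in the calls was not tested. Thinned to 1000 UMIs per nucleus, which left out 12, 7 and 1 nuclei, Slc2a1 RNA was found in 83.7%, 62.0% and 76.1% of nuclei (83.6%, 75.6% and 82.4% unthinned). Rod-like nuclei, unthinned, had it in 4.07%, 6.44% and 7.59%.

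**Figure D2:**
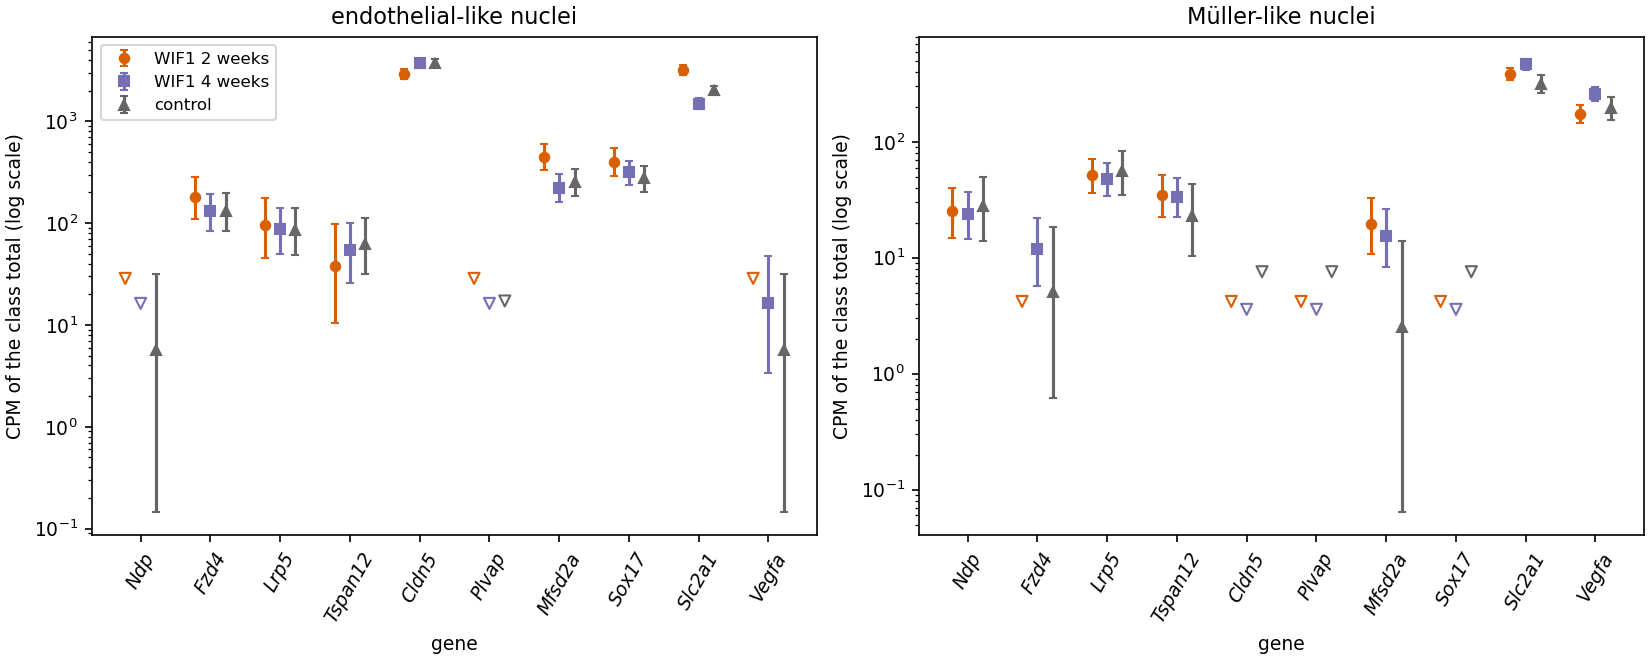
CPM of the class total (log axis) of the 10 genes in endothelial-like nuclei (left) and Müller-like nuclei (right) of WIF1 2 weeks, WIF1 4 weeks and the control. Bars are 95% Poisson intervals and open triangles mark the limit of 3 counts where a gene had 0 UMIs; in endothelial-like nuclei Slc2a1 is separated at 3199, 1492 and 2022 CPM, while Fzd4, Lrp5, Tspan12 and Sox17 overlap.

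Among the named classes, Vegfa was the only one of the 10 genes with its highest level in Müller-like nuclei. A small unnamed sub-cluster with astrocyte markers, described at the end, stood higher, at 748, 1580 and 849 CPM (1 nucleus in the control). Müller-like nuclei held 125, 217 and 78 Vegfa UMIs, or 175 CPM (146 to 208) at WIF1 2 weeks, 259 CPM (226 to 296) at WIF1 4 weeks and 197 CPM (156 to 246) in the control. WIF1 4 weeks was the high library and did not overlap WIF1 2 weeks. The ratio was 0.89 for WIF1 2 weeks over control (0.66 to 1.19), 1.32 for WIF1 4 weeks over control (1.01 to 1.73) and 1.48 for WIF1 4 weeks over WIF1 2 weeks (1.18 to 1.86). Over all libraries Müller-like nuclei held 216 CPM (196 to 237), and amacrine-like (118), horizontal-like (116) and bipolar-like nuclei (115) followed without differing beyond their intervals. By number, bipolar-like nuclei held the largest part of the Vegfa UMIs, 49.2%, 47.0% and 50.4%.

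Slc2a1 in Müller-like nuclei did not repeat the endothelial order. It had 275, 389 and 126 UMIs, or 385 CPM (341 to 433) at WIF1 2 weeks, 465 CPM (420 to 514) at WIF1 4 weeks and 318 CPM (265 to 379) in the control. WIF1 4 weeks was highest here, at 1.46 times the control (1.19 to 1.80), and WIF1 2 weeks was at 1.21 times (0.98 to 1.51). The difference between the endothelial and the Müller order was not tested.

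Low genes of this class were Mfsd2a, with 14, 13 and 1 UMIs, and Fzd4, with 0, 10 and 2 UMIs, at WIF1 2 weeks, at WIF1 4 weeks and in the control. Tspan12 had 25, 28 and 9 UMIs, and Cldn5, Plvap and Sox17 had 0 in each library. The measured genes were Lrp5, Slc2a1 and Vegfa, and none of these 3 was past 2-fold in any comparison. Over all measured genes 10.2% of 5267 were past it for WIF1 2 weeks over control, 3.18% of 5848 for WIF1 4 weeks over control and 6.92% of 6195 for WIF1 4 weeks over WIF1 2 weeks.

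**Figure D3:**
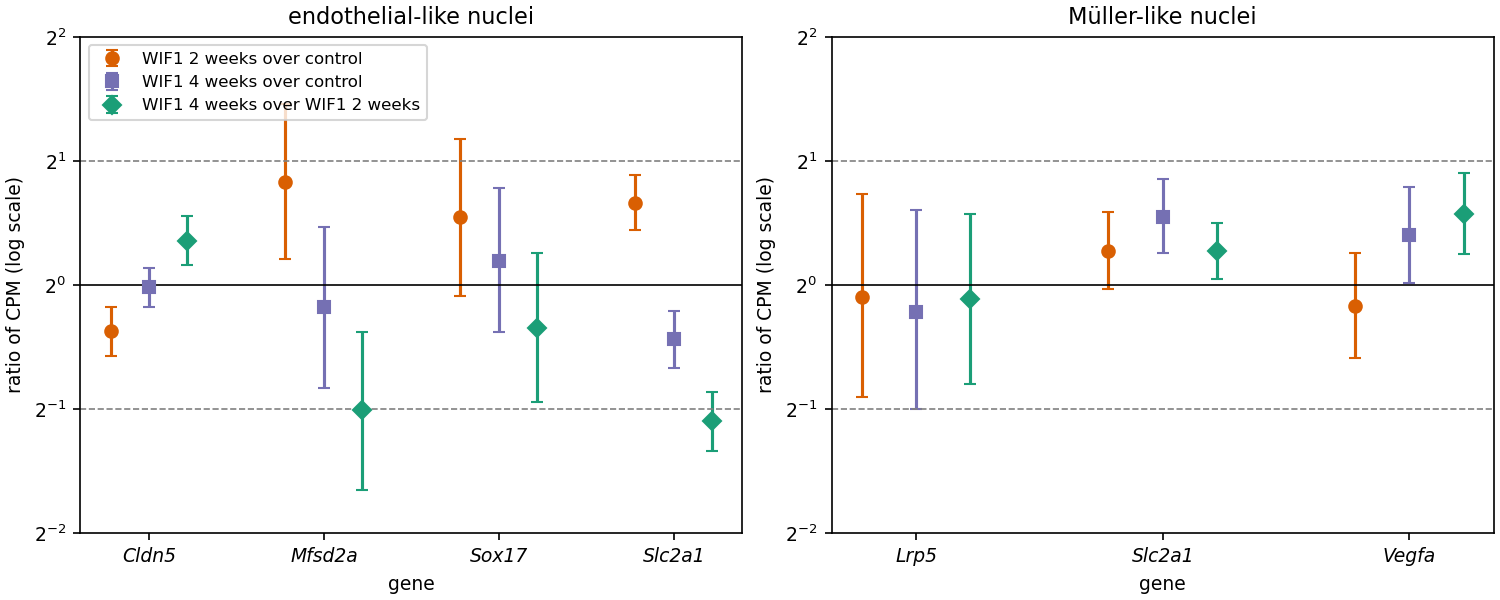
Ratio of CPM (log axis) for the genes measured in endothelial-like (left) and Müller-like nuclei (right), for WIF1 2 weeks over control, WIF1 4 weeks over control and WIF1 4 weeks over WIF1 2 weeks; bars are 95% intervals from counting error and dashed lines mark 2-fold. The points of Slc2a1 and Mfsd2a pass the lower line for WIF1 4 weeks over WIF1 2 weeks, at 0.466 and 0.495, and Cldn5 stands on the other side of 1 from them at 1.28.

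Other genes of the pathway came from 8 lists. Over all genes of endothelial-like nuclei, 2.91% were past 2-fold higher and 8.40% lower for WIF1 2 weeks over control, 3.92% higher and 2.36% lower for WIF1 4 weeks over control, and 11.9% higher and 2.84% lower for WIF1 4 weeks over WIF1 2 weeks. In these nuclei, of 6 measured Wnt receptors, co-receptors and transducers, 1 was past 2-fold for WIF1 2 weeks over control: Apc, a scaffold of the beta-catenin destruction complex, with 14 UMIs at WIF1 2 weeks and 51 in the control (0.46, 0.23 to 0.84). Of 4 measured feedback and endothelial target genes none was past 2-fold in any comparison. All 4 were above 1 for WIF1 2 weeks over control (median log2 0.55, against -0.11 over all genes measured). None was for WIF1 4 weeks over WIF1 2 weeks (median -0.51, against 0.14), and 2 of 4 were for WIF1 4 weeks over control (median -0.001, against 0.05). The first 2 comparisons share the WIF1 2 weeks library. The class's own markers were also highest there, at 24992 CPM against 17878 at WIF1 4 weeks and 20448 in the control. The part of this in these ratios was not tested. Between WIF1 4 weeks and WIF1 2 weeks 1 of 7 transducers was past the fold, the co-repressor Tle4, with 30 UMIs at WIF1 4 weeks and 4 at WIF1 2 weeks (4.26, 1.5 to 16.6). Tcf4, which in spite of its symbol encodes an E protein and not a TCF of this pathway, held 2025, 1768 and 1747 CPM at WIF1 2 weeks, at WIF1 4 weeks and in the control.

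The list of caveolae, leakage and activation genes had 3 higher and 1 lower of 7 measured for WIF1 2 weeks over control. Cavin1 (33 UMIs at WIF1 2 weeks and 20 in the control) was at 2.75 times the control (1.53 to 5.06) and Cavin2 (71 and 49) at 2.42 times (1.65 to 3.55), both coat proteins of caveolae. Tie1, a receptor kinase that is also among the markers that named the class, was at 2.17 times (1.31 to 3.61). Vcam1, an adhesion molecule for leukocytes, had 3 UMIs at WIF1 2 weeks against 41 in the control (0.12, 0.02 to 0.38). Cavin1, Cavin2 and Tie1 were lower for WIF1 4 weeks over WIF1 2 weeks, at 0.46, 0.46 and 0.38, and none of 6 was past the fold for WIF1 4 weeks over control.

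Of 12 junction genes measured, none was past 2-fold against the control at either time. Their median log2 was 0.18 at WIF1 2 weeks and 0.05 at WIF1 4 weeks, against -0.11 and 0.05 over all genes measured. Over WIF1 2 weeks, 1 of 12 was lower at WIF1 4 weeks, the adhesion molecule Esam, also a class marker, at 0.48 (0.32 to 0.71). None of 14 or 15 measured barrier transporters was past the fold in any comparison, and neither of the 2 measured VEGF ligands and receptors was. Of 7 hypoxia genes 1 was higher for WIF1 2 weeks over control, the stress gene Ddit4, at 2.27 times (1.31 to 3.96). From the list of ligands, Vtn, which encodes vitronectin, is also among the pericyte markers. It was at 0.10 times the control at WIF1 2 weeks (5 and 82 UMIs) and 0.39 times at WIF1 4 weeks (34 and 82 UMIs). At WIF1 4 weeks it was at 3.86 times WIF1 2 weeks. The pericyte marker levels of 821, 1112 and 2154 CPM given above include Vtn itself.

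In Müller-like nuclei, where 6.02% of all genes were past 2-fold higher and 4.16% lower for WIF1 2 weeks over control, 2 of 18 measured transducers, Dvl3 (2.53, 1.10 to 6.80) and Dvl1 (2.17, 1.17 to 4.36), which relay the frizzled signal, were higher. So were Ppard at 2.15 times, 1 of 4 feedback and target genes, the junction gene Cgn at 2.22 times, 1 of 10, and Fgf2 at 2.15 times, 1 of 5 ligands. Vtn, also among the pericyte markers, was lower, at 0.25 times (0.13 to 0.47). Its levels were 22.4, 47.8 and 88.4 CPM at WIF1 2 weeks, at WIF1 4 weeks and in the control. Beside them, rod markers in these nuclei summed to 1461, 2845 and 5488 CPM and pericyte markers to 225, 201 and 311 CPM. The part of this RNA in the Vtn ratios was not tested. The share of all genes past 2-fold was 2.26% higher and 0.923% lower for WIF1 4 weeks over control. There 1 listed gene was past the fold, the junction gene F11r, with 43 UMIs at WIF1 4 weeks and 6 in the control (3.39, 1.44 to 9.76). Between the AAV libraries (4.07% of genes higher and 2.86% lower at WIF1 4 weeks over WIF1 2 weeks), Dvl1 (0.39) and Ppard (0.47) were lower, and Vtn (2.14) and the hypoxia gene Bnip3 (2.72) higher. None of 12 measured hypoxia genes was past 2-fold for WIF1 2 weeks over control and none of 15 for WIF1 4 weeks over control, where their median log2 was 0.02 and 0.17, against 0.02 and 0.03 over all genes.

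The 250 bases before the start are shown for Mfsd2a and Slc2a1, which were lower together at WIF1 4 weeks than at WIF1 2 weeks, and for Cldn5, which was not. Sequences are from RefSeq (GRCm38.p6, the mm10 assembly), 5′ to 3′ on the strand of the gene, and 7 of the 10 genes had an entry at the start site of the files. Capitals mark CTTTGA, the core of TCF/LEF sites, and ACGTG, the core of hypoxia response elements, searched on both strands (TCAAAG and CACGT).
Mfsd2a, chr4:122961189-122961438, minus strand: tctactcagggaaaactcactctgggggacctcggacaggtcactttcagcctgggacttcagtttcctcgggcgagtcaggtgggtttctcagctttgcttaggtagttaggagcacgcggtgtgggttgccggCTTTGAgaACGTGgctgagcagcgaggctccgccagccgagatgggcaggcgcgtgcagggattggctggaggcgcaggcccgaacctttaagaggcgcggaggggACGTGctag
Slc2a1, chr4:119108495-119108744, plus strand: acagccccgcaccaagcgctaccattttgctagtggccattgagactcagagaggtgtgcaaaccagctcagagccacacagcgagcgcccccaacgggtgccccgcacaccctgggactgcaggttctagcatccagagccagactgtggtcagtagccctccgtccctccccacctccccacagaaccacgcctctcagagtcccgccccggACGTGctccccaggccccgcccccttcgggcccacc
Cldn5, chr16:18776597-18776846, plus strand: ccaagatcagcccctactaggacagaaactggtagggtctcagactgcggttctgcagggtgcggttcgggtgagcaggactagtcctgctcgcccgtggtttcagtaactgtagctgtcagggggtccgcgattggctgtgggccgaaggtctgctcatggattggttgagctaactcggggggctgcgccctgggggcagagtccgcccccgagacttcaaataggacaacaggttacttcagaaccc

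Mfsd2a holds 1 CTTTGA and 2 ACGTG, Slc2a1 holds 1 ACGTG, and Cldn5 holds neither. Of 32544 promoters of the same length, 13.9% hold CTTTGA and 16.6% ACGTG, so a match is common. The remaining 4 genes with an entry, Ndp, Fzd4, Tspan12 and Vegfa, hold neither in this window.

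Open chromatin was called at the starts of some of the genes only. Peaks within 1000 bp of the start were called at Fzd4, Tspan12, Slc2a1 and Vegfa in each library, and at Ndp and Plvap in none. Lrp5 and Mfsd2a had a peak at WIF1 2 weeks and WIF1 4 weeks, and Cldn5 and Sox17 at WIF1 2 weeks. Peaks were called per library, and the number of ATAC counts per library followed the same order. Without counts where no peak was called, such a start could not be told open or closed. As CPM of all promoter counts, Slc2a1 stood at 178 at WIF1 2 weeks, 189 at WIF1 4 weeks and 180 in the control, and Fzd4 at 208, 207 and 156.

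Sums at a start cover the peaks of each library, which differ in length, so their ratios compare unlike regions and are given as a description beside the peak length. Of the 4 starts measured in both libraries, Vegfa was past 1.5-fold for WIF1 2 weeks over control, at 79.4 CPM over 1566 bp of peak against 128 CPM over 1770 bp (ratio 0.62), where 16.0% of 15814 genes were. Per kb of peak this was 50.7 against 72.2 CPM, a ratio of 0.70, under the fold. Per nucleus the ratio was 1.02, on the other side of 1, but counts per nucleus are not adjusted for depth. The kept nuclei held 62966172 ATAC counts in 8927 nuclei at WIF1 2 weeks, 59813094 in 8922 at WIF1 4 weeks and 30410941 in 7185 in the control. Tspan12 was past the fold for WIF1 4 weeks over control, at 3.79 CPM over 915 bp against 7.0 CPM over 808 bp (ratio 0.54), where 17.4% of 15665 genes were. Per kb of peak its ratio was 0.48, and per nucleus, again without adjustment for depth, 0.86, under the fold. None of 6 was for WIF1 4 weeks over WIF1 2 weeks, against 8.74% of 16724 genes. Tspan12 counts were 31, 8 and 44 in amacrine-like nuclei of WIF1 2 weeks, WIF1 4 weeks and the control. There were 222, 120 and 414 such nuclei, and the levels within them were 23.2, 13.1 and 25.4 CPM. For WIF1 4 weeks over control the Tspan12 ratio in endothelial-like nuclei was 0.42 (0.17 to 0.99, 10 and 15 counts), or 0.37 per base of peak. In Müller-like nuclei it was 0.96 (0.45 to 2.22, 26 and 10 counts), or 0.84 per base. The part of each class in the ratio over all nuclei was not tested. The median ratio over all genes was 0.94 for either comparison with the control.

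Within Müller-like nuclei the Vegfa start had 118, 131 and 71 counts over 1566, 1583 and 1770 bp of peak at WIF1 2 weeks, at WIF1 4 weeks and in the control. Its ratio to control was 0.49 at WIF1 2 weeks and 0.68 at WIF1 4 weeks, or 0.55 and 0.76 per base of peak. In endothelial-like nuclei the Slc2a1 start had 102, 123 and 65 counts over 924, 888 and 883 bp, with a ratio of 0.99 for WIF1 4 weeks over WIF1 2 weeks (1.03 per base), while its RNA had a ratio of 0.466. The Mfsd2a start had 19 counts in 2 peaks (1463 bp) at WIF1 2 weeks and 21 in 1 peak (828 bp) at WIF1 4 weeks, and no ratio is given for these unlike regions. The Fzd4 start in these nuclei had 79, 94 and 40 counts over 938, 949 and 805 bp. Per base of peak it was at 1.30 times the control at WIF1 2 weeks and 1.25 times at WIF1 4 weeks.

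**Figure D4:**
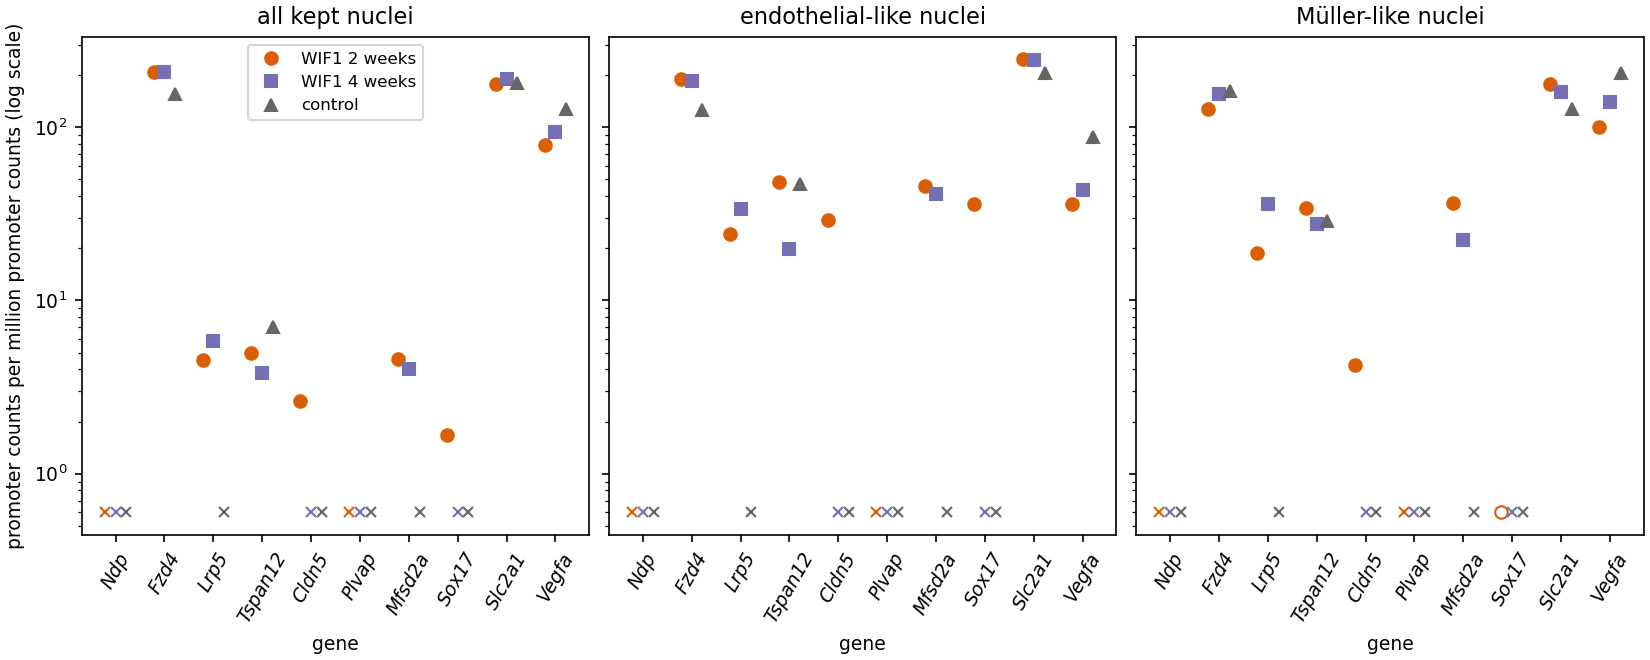
ATAC counts in peaks within 1000 bp of each start, as CPM of all promoter counts (log axis), over all kept nuclei, endothelial-like nuclei and Müller-like nuclei of WIF1 2 weeks, WIF1 4 weeks and the control. Crosses at the bottom mark libraries with no called peak and the open circle a peak with 0 counts in that class; Slc2a1 lies close together in the 3 libraries over all nuclei (178, 189 and 180), and on this scale, which does not adjust for peak length, Vegfa is highest in the control.

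Peaks at 3 times the CPM of the next class or more, with 10 or more counts, lay within 50 kb of all 5 barrier genes for endothelial-like nuclei of at least 1 library. Those called in all 3 libraries were 2 inside Sox17, 3.33 and 4.61 kb after its start, 1 inside Mfsd2a, 5.56 kb after its start, 1 at 2.79 kb before Slc2a1 and 1 at 25.7 kb before Plvap. The nearer Sox17 peak held 51.9, 70.6 and 66.9 CPM in endothelial-like nuclei of WIF1 2 weeks, WIF1 4 weeks and the control (30, 49 and 28 counts), at least 8.28 times the next class. The Mfsd2a peak held 88.2, 80.7 and 107 CPM (51, 56 and 45 counts), at 5.54, 2.71 and 3.28 times the next class. The Slc2a1 peak held 39.8, 38.9 and 26.3 CPM (23, 27 and 11 counts), at 3.48, 3.83 and 1.40 times the next class, and the Plvap peak 38.0, 28.8 and 52.5 CPM, at 1.21, 1.11 and 3.30 times. A peak 43.4 kb before Cldn5 was called at WIF1 2 weeks and WIF1 4 weeks with 24.2 and 50.5 CPM (14 and 35 counts), at 5.78 and 8.92 times the next class. Another peak before Cldn5, nearer its start, was called in the control only, with 38.2 CPM (16 counts), at 16.9 times the next class. Where a library had no called peak, these regions could not be told open or closed. For Müller-like nuclei a peak inside Lrp5, 44.6 kb after its start, held 77.7 CPM at WIF1 2 weeks and 59.3 CPM at WIF1 4 weeks, at 17.9 and 6.46 times the next class. These peaks were picked by class level, so their class difference is a description, and which gene they act on was not tested.

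**Figure D5:**
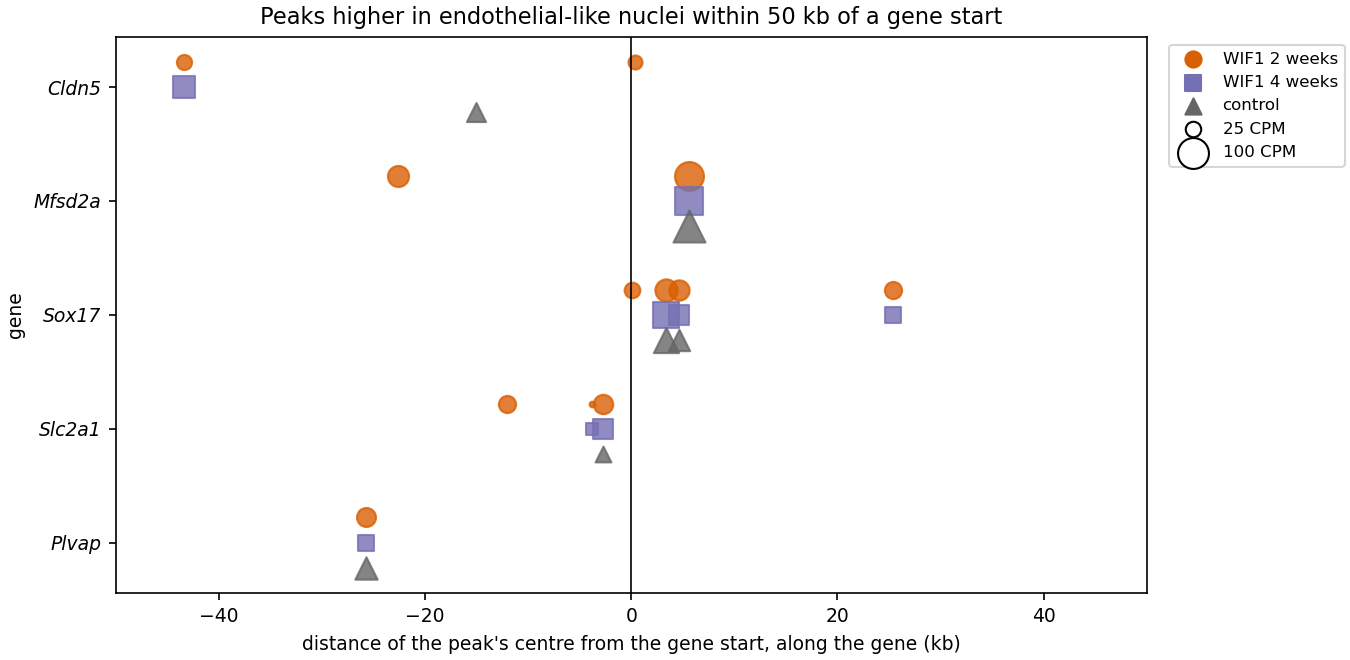
Peaks at 3 times the next class or more in endothelial-like nuclei of at least 1 library, by distance of the peak's centre from the start of the gene along its strand (kb, negative before the start); symbol area is CPM of the class, and symbols stand for WIF1 2 weeks, WIF1 4 weeks and the control. The peaks 3.33 and 4.61 kb after the Sox17 start and 5.56 kb after the Mfsd2a start carry symbols of all 3 libraries, and the peaks at the Sox17 and Cldn5 starts only that of WIF1 2 weeks.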

How the data were processed

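The 3 deposited matrices hold raw counts per nucleus of RNA UMIs per gene and of ATAC fragments or cut sites per peak, 1 matrix per library. Per the submitters' processing notes, Cell Ranger ARC 2.0.1, Seurat 5.0.1 and Signac 1.12.0 were used on mm10, with no roles given. From these deposited counts, nuclei were kept from 500 UMIs and 300 genes upwards, up to a mitochondrial share of 10%, and doublets were called per library by Scrublet score at 0.8% per 1000 barcodes and removed. Nuclei of all libraries were clustered with scanpy 1.11.5 (2000 variable genes, 30 components, Leiden resolution 1). Clusters were named from listed markers, none of them among the 10 genes. Cldn5 and Slc2a1 were among the variable genes used for clustering. UMIs were summed per class and library. The members, markers and lists were chosen with earlier results of these data known. Named list genes were up to 6 per list, class and comparison with the largest ratio among those past the fold. The calls and intervals were run on simulated counts, drawn as Poisson counts around class means with changes larger than the fold in well-counted genes. That simulation does not cover spread between nuclei or libraries, nor calls near the fold.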

Additional observations from a re-analysis of the deposited data

How the results depend on the processing

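No paired analysis was possible because each group is 1 library. Each result was paired with each alternative setting that applied to it. For the main results, 134 pairs were labelled the same and 21 moved. For the other results, 129 pairs were labelled the same. This label does not mean an equal value: a ratio could shift inside its interval, and a count within a set limit. Vegfa in Müller-like nuclei for WIF1 4 weeks over control ran from 1.24 to 1.66, against 1.32. Ndp and Vegfa ratios in Müller-like nuclei stayed inside their intervals, between 0.76 and 1.11 for Ndp and between 0.78 and 1.66 for Vegfa. Cldn5 at WIF1 4 weeks over control moved to 1.13 with called doublets kept and to 0.87 without nuclei with 5 or more pericyte UMIs, a setting chosen after seeing the data. Genes past 2-fold in endothelial-like nuclei for WIF1 2 weeks over control numbered 2 with doublets kept (Mfsd2a and Sox17, higher) and 1 without those pericyte-marked nuclei (Sox17). For WIF1 4 weeks over WIF1 2 weeks they numbered 0 with doublets kept or without nuclei of over 25% rod chromatin, and 1 (Slc2a1) with nuclei of at least 1000 UMIs, with mitochondrial and rod genes out of the total, with TMM factors or without the members among the variable genes. In Müller-like nuclei there was 1 (Tspan12) for WIF1 4 weeks over control with each library clustered alone. With a minimum of 10 UMIs there were 1 for WIF1 2 weeks over control (Mfsd2a), 2 for WIF1 4 weeks over control (Fzd4 and Mfsd2a) and 1 for WIF1 4 weeks over WIF1 2 weeks (Fzd4). At the promoters, counts per 1000 nuclei gave 2 for either comparison with the control (Fzd4 and Slc2a1, higher). That measure is not adjusted for the higher ATAC depth of the AAV libraries. All barcodes gave 2 for WIF1 2 weeks over control (Tspan12 and Vegfa), and peaks within 2000 bp gave 1 for WIF1 4 weeks over WIF1 2 weeks (Mfsd2a). Per base of peak, also chosen after seeing the data, there were 0 for WIF1 2 weeks over control and 2 for WIF1 4 weeks over WIF1 2 weeks (Tspan12 lower and Mfsd2a higher). Listed genes past 2-fold in endothelial-like nuclei for WIF1 4 weeks over control numbered 3 with doublets kept, against 1. The cause of these moves was not tested. At this depth, Ndp in Müller-like nuclei and Fzd4, Lrp5, Tspan12, Plvap and Vegfa in endothelial-like nuclei had under 30 UMIs in each library.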

Other observations

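A sub-cluster of 19 nuclei at WIF1 2 weeks, 11 at WIF1 4 weeks and 1 in the control was left unnamed, since it carried Müller markers together with the astrocyte markers Pax2 (30, 21 and 4 UMIs) and Pdgfra (81, 74 and 8 UMIs). Its Vegfa RNA stood at 748, 1580 and 849 CPM (54, 73 and 4 UMIs), against 175, 259 and 197 CPM in Müller-like nuclei. One nucleus held 38 of the 73 Vegfa UMIs at WIF1 4 weeks. Ndp had 1 UMI at WIF1 2 weeks and 8 at WIF1 4 weeks in these nuclei, which is 13.9 and 173 CPM (1 nucleus held 4 of the 8), and Lrp5 had 14 and 8 UMIs. Cldn5, Plvap, Mfsd2a and Sox17 had 0. With 1 control nucleus, no comparison with the control was made for it.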
